A study of Homo sapiens with 21 samples.

Results

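NCI-H1975 and PC-9 are human lung adenocarcinoma lines that both carry mutant EGFR, and their circular RNAs (circRNAs) were compared here. The comparison took the 3 NCI-H1975 and the 3 PC-9 libraries whose labels bear neither a resistance code nor a plasmid, which are 6 of the 21 libraries of the series. Of the 124082 circRNAs in the table, 9175 (7.39%) passed a filter on low counts and were tested. All cells were grown in RPMI with fetal bovine serum, and the labels record an EGFR mutation for both lines without naming it. The remaining libraries were used for reference. They are gefitinib-resistant PC-9 (1 µM gefitinib), osimertinib-resistant NCI-H1975 (1 µM osimertinib), NCI-H1975 transfected with the plasmid pCMV6 or with FASN, the fatty acid synthase gene (each under 50 µg/ml G418), and NL20, an immortalized, non-tumorigenic bronchial epithelial line. Each of these 5 groups had 3 libraries. A cell line stands for 1 tumour, so what is described here sets apart these lines and not classes of EGFR mutation.

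A circRNA forms when a downstream splice donor joins an upstream acceptor in the same transcript, which closes the exons in between into a ring. Rings have no ends for exonucleases to act on and tend to outlive the linear RNA of their gene. Their levels follow the transcription of the host gene, the splicing factors of the cell and the pace of division, and are known to differ between cell types. EGFR is a receptor tyrosine kinase. PC-9 carries an activating deletion in it and is sensitive to gefitinib, whereas NCI-H1975 carries an activating point mutation together with a further one that blocks gefitinib but not osimertinib.

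The table names circRNAs by numbers of its own and pairs them with no gene, coordinate or sequence. No host gene, gene list or sequence can therefore be given, and at most 2 circRNAs that were higher and 2 that were lower are named in a comparison. The NCI-H1975 libraries held 138753, 148290 and 170423 reads and the PC-9 libraries 131329, 192666 and 106266. The labels do not say whether libraries of a line came from separate cultures, so the spread between libraries may be technical. P-values of single circRNAs rest largely on a spread pooled across circRNAs and over all 7 groups, rather than on a circRNA's own libraries. Libraries of a line differed by more than sampling noise, with a chi-square of 2.23 to 2.65 for each degree of freedom over circRNAs of 20 or more reads.

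Libraries of one line resembled each other more than they resembled the other line. With each library thinned to 106266 reads, any pair of NCI-H1975 libraries had between 65.8% and 66.4% of its reads in common and any pair of PC-9 libraries between 63.9% and 64.6%. Over the 9 pairs that joined an NCI-H1975 to a PC-9 library, the reads in common came to between 44.1% and 46.0%. By presence alone the gap was smaller. Of the circRNAs read in a pair of libraries, 32.3% to 32.6% were read in both within NCI-H1975, 31.9% to 32.3% within PC-9 and a median of 27.5% (from 27.0% upward) across the lines. Most circRNAs of the table were read so rarely that a library of the same line also missed them.

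Of the 9175 circRNAs tested, 1817 (19.8%) differed between the lines, 909 (9.91%) higher and 908 (9.90%) lower in NCI-H1975. The differences were called by edgeR's quasi-likelihood test at a Benjamini-Hochberg adjusted p under 0.05, and 2913 circRNAs had an unadjusted p under 0.05. The median called circRNA was 5.17-fold higher or 6.42-fold lower in NCI-H1975. A circRNA unread in a line was counted at the bound that a floor of 3 reads over its 3 libraries gives. These medians run high, since small differences at few reads are seldom called. The median log2 difference of all circRNAs tested was 0.034 and the median of its size 1.09. The libraries of the lines did not overlap in 1718 (94.6%) of the called circRNAs and in 36.3% of all circRNAs tested. Tested against a fold of 2 rather than against no difference, 950 circRNAs (10.4%) lay beyond it, 430 (4.69%) higher and 520 (5.67%) lower. This count was 621 without NCI-H1975 replicate 2 and 631 without PC-9 replicate 2. Beyond a fold of 4 lay 299, with 118 higher and 181 lower. Without the filter on low counts 772 circRNAs were called, all among the 1817.

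**Figure D1:**
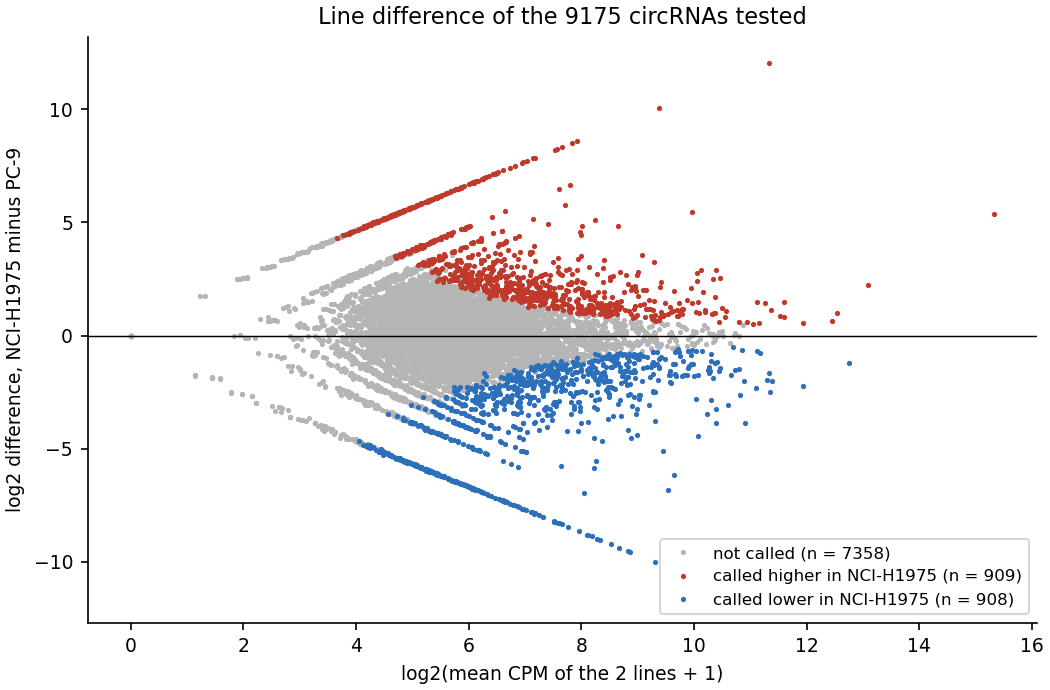
Log2 difference between NCI-H1975 and PC-9 (vertical axis) against log2 of the mean CPM of both lines plus 1 (horizontal axis), 1 point for each of the 9175 circRNAs tested, with red for the 909 called higher in NCI-H1975, blue for the 908 called lower and grey for those not called. The straight outer lines of points are circRNAs with no read in one line, whose plotted difference depends on the prior count of the fit, and the red point at the far right is hsa_circ_11052.

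The circRNA with the smallest p was hsa_circ_11052, which is also the one with the most reads in the table. It had 8191, 9239 and 9921 reads in the NCI-H1975 libraries and 160, 306 and 168 in the PC-9 libraries. CPM, the depth-scaled read count, was computed from the reads in the circRNAs tested with TMM scaling factors. On this scale hsa_circ_11052 stood at 80343 ± 1866 CPM in NCI-H1975 and 1961 ± 292 CPM in PC-9 (SD, n = 3), a 40.9-fold difference (log2 5.35 ± 0.11 SE, smallest p of all circRNAs in edgeR's quasi-likelihood test). No PC-9 library came near any NCI-H1975 library. Its mean in PC-9 was still above those of both circRNAs at like levels described further on. In NL20 it stood at 4411 ± 395 CPM, between the lines and nearer to PC-9.

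The circRNA with the second smallest p in this direction, hsa_circ_6671, was present in one line and unread in the other. The NCI-H1975 libraries held 519, 564 and 683 reads of it, or 5173 ± 291 CPM (SD, n = 3), and none in any PC-9 library, which makes it at least 550-fold higher (edgeR adjusted p = 1.32e-177). NL20 had no read of it either, nor did gefitinib-resistant PC-9. All the NCI-H1975 groups held it, with 5482 ± 522 CPM in FASN cells and lower levels of 2085 ± 458 in osimertinib-resistant and 1758 ± 327 in pCMV6 cells.

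PC-9 had a counterpart in hsa_circ_104535. Its reads were 300, 567 and 306 in the PC-9 libraries and 0 in each NCI-H1975 library, at least 418.4-fold lower in NCI-H1975 (3624 ± 520 CPM in PC-9, SD, n = 3, edgeR adjusted p = 2.48e-121). Gefitinib-resistant PC-9 held 3557 ± 459 CPM, and none of the 9 other NCI-H1975 libraries and none of the NL20 libraries had a read. The next, hsa_circ_29236, had 134, 227 and 140 reads in PC-9 and 6, 1 and 0 in NCI-H1975. Its level was 1568 ± 161 CPM against 22.2 ± 31.0 (SD, n = 3), a 71.5-fold difference in the fit (log2 -6.16 ± 0.38 SE, edgeR adjusted p = 2.12e-55). Without NCI-H1975 replicate 1, which held 6 of the 7 reads, the log2 difference was -8.17, and without replicate 3 it was -5.53. Gefitinib-resistant PC-9 held more than PC-9, at 2753 ± 232 CPM. The calls of these 4 circRNAs and their directions held under each of the 16 alternative settings in which they were tested. The size of their p-values did not hold. For hsa_circ_6671 the adjusted p was 3.18e-193 in edgeR without osimertinib-resistant replicate 2. It was 6.36e-45 in edgeR on the 6 libraries alone and 1.62e-19 in DESeq2's Wald test.

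**Figure D2:**
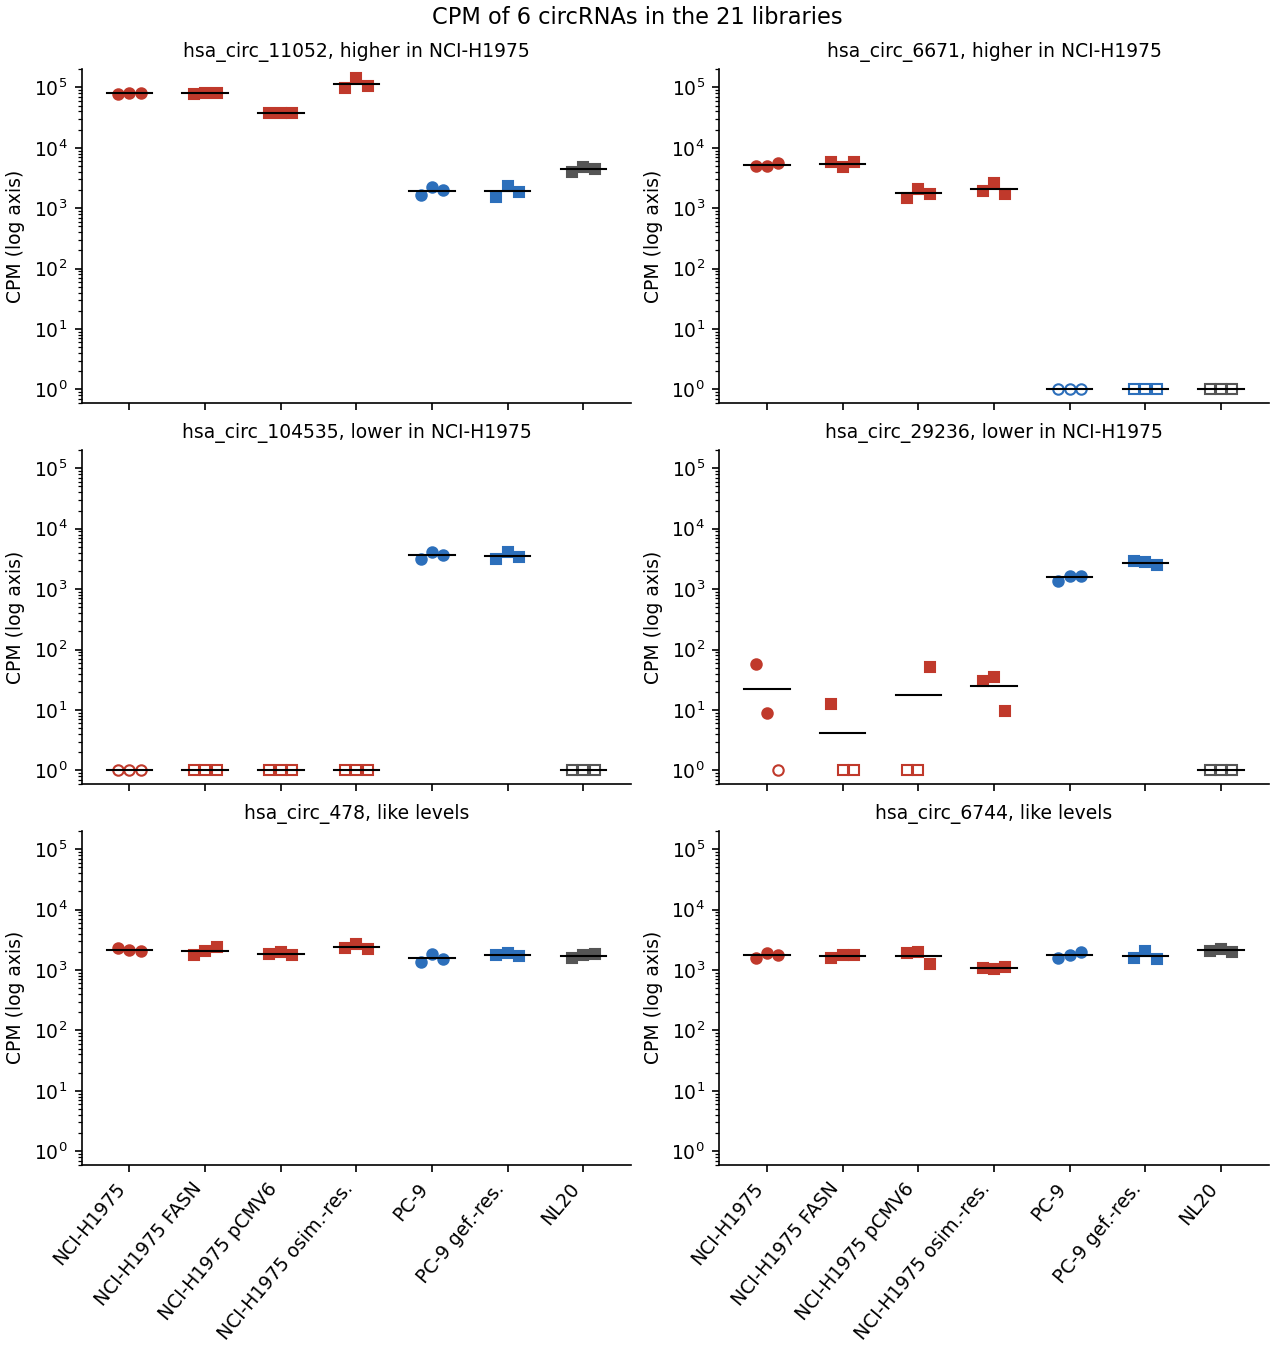
CPM (vertical log axis) of 6 circRNAs in the 21 libraries, with 1 point a library, a horizontal bar for the mean of a group (n = 3), circles for the compared NCI-H1975 and PC-9 libraries and squares for the other groups; libraries with no read are open symbols drawn at 1 CPM. The upper 4 panels show red NCI-H1975 and blue PC-9 libraries far apart, as for hsa_circ_104535 at 3624 CPM in PC-9 and 0 in NCI-H1975, and the lowest 2 panels show circRNAs at like levels in both lines.

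Many calls were of this present-or-unread kind. Of the circRNAs called higher in NCI-H1975, 229 (25.2%) had no read in PC-9, with 8 to 1766 reads (median 19) in NCI-H1975. Of those called lower, 224 (24.7%) had no read in NCI-H1975, with 9 to 1173 reads (median 26.5) in PC-9. Most of these circRNAs were therefore near the limit of detection, and a floor of 3 reads still allows a low level in the other line. These counts rested on the filter. With a minimum count of 10 they were 82 and 99, without a filter 82 and 117, and 72 and 133 when the 6 libraries were fitted by themselves. Presence in a single line was common among all circRNAs, tested or not. Of 68712 read in either line, 23882 were read in NCI-H1975 alone and 21428 in PC-9 alone, each with a median of 2 reads. The share of uncalled circRNAs unread in a line was not counted, so being unread is not shown to set the calls apart.

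Pooled to 304143 reads a group, well-read circRNAs were seldom lost between the lines, but more often than within a line. Of the circRNAs with at least 10 reads in NCI-H1975, 5.81% were unread in PC-9, against 0.526% in FASN, 1.31% in pCMV6 and 1.83% in osimertinib-resistant NCI-H1975. In the other direction, 7.94% of the circRNAs with at least 10 reads in PC-9 were unread in NCI-H1975, against 1.27% in gefitinib-resistant PC-9. At 100 reads or more the shares were 1.22% for NCI-H1975 circRNAs unread in PC-9 and 3.18% for PC-9 circRNAs unread in NCI-H1975, and none was unread in a group of the same line. NL20 lacked like shares, with 5.21% of NCI-H1975 circRNAs and 8.47% of PC-9 circRNAs of at least 10 reads unread in it. These shares are means over 20 draws and carry no test.

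The share of circRNAs called rose with their reads. It was 2.48% below a mean of 2 reads over the 6 libraries, 11.5% from 2 to 5, 16.9% from 5 to 10, 30.7% from 10 to 20, 47.7% from 20 to 50 and 66.8% at 50 or more. The median size of a called log2 difference was 1.78, 2.84 and 3.27 in the first 3 of these classes and 2.28, 1.71 and 1.40 in the last 3, so it was highest from 5 to 10 reads. The first of these medians rests on only 17 higher and 4 lower circRNAs. The median size over all circRNAs, called or not, changed little from 10 reads upward, at 0.955, 0.944 and 0.941 in these classes. The 100 circRNAs with the highest sum of the mean CPM of the 2 lines were also counted, a ranking that admits circRNAs scarce in 1 line. Of these, 36 were higher in NCI-H1975, 39 were lower and 25 were not called, with 42 beyond a fold of 2. Of the first 10, 8 were higher in NCI-H1975 and 2 lower.

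The filter shaped which circRNAs could be called. Only 1476 (16.1%) of those tested reached the minimum count in all 3 libraries of both lines, and of these 219 were higher and 261 lower in NCI-H1975 (32.5%). A further 1083 reached it in NCI-H1975 alone, where 424 were called and each was higher, and 1065 in PC-9 alone, where 474 were called and each was lower. Of the 5551 that reached it in all 3 libraries of neither line, 7.91% were called, 266 higher and 173 lower. The filter asked for the minimum in any 3 of the 21 libraries. These circRNAs could thus pass through other groups or through a mix of NCI-H1975 and PC-9 libraries.

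Circular RNAs at like levels in both lines were harder to show. Of the 4863 circRNAs that averaged 5 reads or more, 1396 (28.7%) were called, and for 237 (4.87%) the 95% interval of the log2 difference lay within -1 to 1, 8 of which were called. For another 3238 (66.6%) the difference was not called and its interval reached a fold of 2 or more, so equality was not detectable at this depth. Among the 328 circRNAs that averaged 50 reads or more, 101 (30.8%) had an interval within a fold of 2. For hsa_circ_6744 the reads were 167, 215 and 220 in the NCI-H1975 libraries against 155, 240 and 170 in the PC-9 libraries, or 1765 ± 157 against 1791 ± 215 CPM (SD, n = 3), with a log2 difference of -0.02 (95% interval -0.38 to 0.34). Its libraries overlapped fully. The more abundant hsa_circ_478 had 237, 243 and 255 reads against 132, 253 and 129, or 2166 ± 110 against 1581 ± 245 CPM, with a log2 difference of 0.45 (95% interval 0.10 to 0.80, edgeR adjusted p = 0.0537). All 3 NCI-H1975 libraries lay above all 3 PC-9 libraries, and the difference was called in 6 of 16 alternative settings, so it is bounded by a fold of 2 rather than shown to be nil.

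The called circRNAs held a large part of the reads. The 909 called higher took 29.3% ± 0.552 of the reads in NCI-H1975 and 7.46% ± 0.064 in PC-9 (SD, n = 3), and the 908 called lower took 7.04% ± 0.280 and 27.4% ± 0.480. As these circRNAs were chosen by the same reads, the shares are a description. Without hsa_circ_11052 the higher class still took 23.3% ± 0.338 in NCI-H1975. Circular RNAs tested and not called held 39.7% ± 0.257 of the reads in NCI-H1975 and 40.0% ± 0.265 in PC-9, and those not tested 24.0% ± 0.384 and 25.1% ± 0.524. About as many reads thus lay in called circRNAs in one line as in the other.

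Groups outside the comparison kept to the side of their line. The circRNAs called higher in NCI-H1975 held 28.5% ± 0.340 of the reads in FASN, 28.2% ± 3.18 in osimertinib-resistant and 24.8% ± 0.223 in pCMV6 cells, against 9.99% ± 0.035 in gefitinib-resistant PC-9 (SD, n = 3). The spread in osimertinib-resistant cells came with replicate 2, at 31.9% against 25.9% and 27.0%, a library in which hsa_circ_11052 alone took 11.4% of the reads. For the circRNAs called lower the shares were 7.58% ± 0.138 in FASN, 9.0% ± 0.268 in pCMV6 and 9.28% ± 0.652 in osimertinib-resistant cells, against 24.7% ± 0.225 in gefitinib-resistant PC-9. NL20 stood between the lines in both classes, at 14.5% ± 0.295 and 14.1% ± 0.081.

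**Figure D3:**
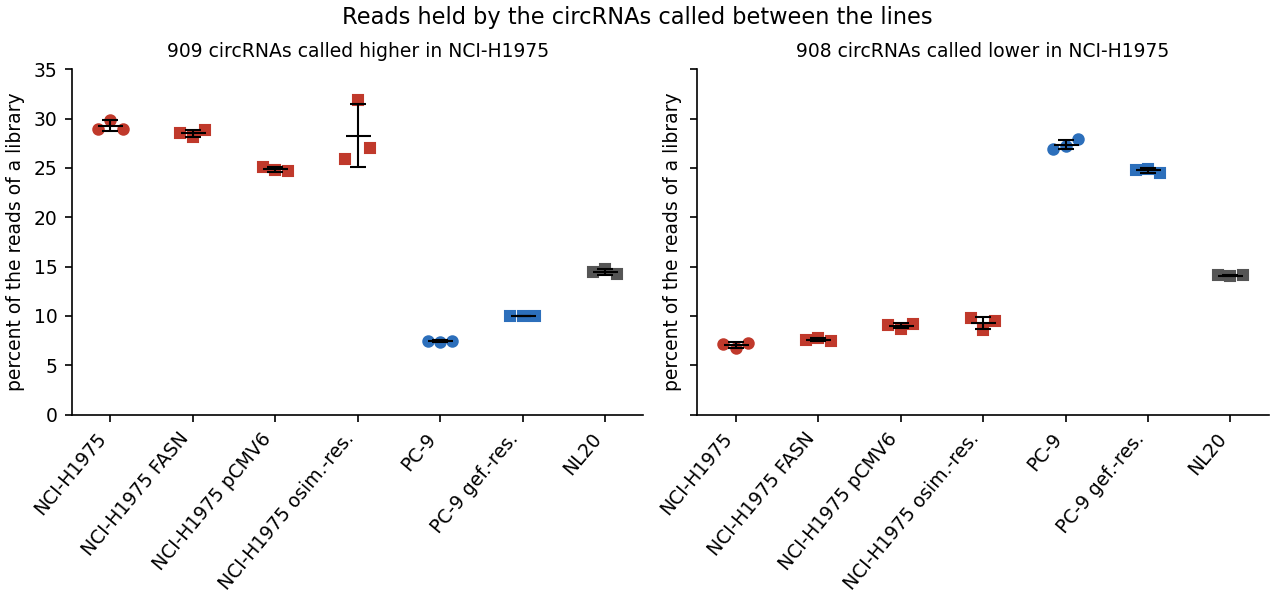
Percent of the reads of each library (vertical axis from 0) held by the 909 circRNAs called higher (left) and the 908 called lower (right) in NCI-H1975, by group, with 1 point a library and the mean ± SD (n = 3) in black. Red NCI-H1975 groups lie at 24.8% to 29.3% on the left and 7.04% to 9.28% on the right, blue PC-9 groups the other way, and NL20 at 14.5% and 14.1%.

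For single called circRNAs NL20 also lay mostly between the lines. Its mean CPM was between or equal to those of the lines for 646 (71.1%) of the circRNAs called higher in NCI-H1975 and 601 (66.2%) of those called lower, and for 30.5% of those not called, where the lines lie closer together. It was above both lines for 138 and 140 of the higher and lower circRNAs and below both for 125 and 167. No NL20 library had a read of 81 (8.91%) of the higher and 147 (16.2%) of the lower circRNAs, against 3.98% of those not called. The filter ran over all groups, so uncalled circRNAs could pass it through NL20 itself. These shares are thus partly set by the filter and carry no conclusion about NL20.

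NCI-H1975 spent more of its reads on a few circRNAs, and hsa_circ_11052 accounted for most of this. The 10 circRNAs with the most reads in a library held 10.1% ± 0.213 of the reads in NCI-H1975 and 3.64% ± 0.041 in PC-9 (SD, n = 3). With hsa_circ_11052 left out they held 4.72%, 4.70% and 4.66% of the rest in the NCI-H1975 libraries and 3.68%, 3.60% and 3.66% in the PC-9 libraries. The libraries did not overlap, and the difference in means of 1.05 percentage points had an exact two-sided permutation p of 0.1, the smallest that 3 libraries against 3 allow, and 0.1 after adjustment over 2 tests. For the 100 circRNAs with the most reads, with hsa_circ_11052 left out, the shares were 15.4% ± 0.202 and 15.2% ± 0.159 and overlapped (exact permutation p = 0.3). At 106266 reads a library, 50% of the reads lay in 1344 ± 30.9 circRNAs in NCI-H1975 and in 1460 ± 60.1 in PC-9 (exact permutation p = 0.1). Leaving out hsa_circ_11052 turned this round, to 1624 ± 31.6 against 1465 ± 59.5. With this circRNA left out, the NCI-H1975 libraries (1594 to 1657) lay above the PC-9 libraries (1397 to 1505).

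The difference between the lines was measured again in libraries that the comparison had not used. The mean of the osimertinib-resistant, pCMV6 and FASN groups of NCI-H1975 was set against gefitinib-resistant PC-9, with 9 and 3 libraries. Among the 9, pCMV6 replicate 1 and osimertinib-resistant replicate 2 have the same total of 110456 reads in the table although their counts differ, as with hsa_circ_11052 at 3.02% and 11.4% of the reads. A difference was called for 2079 circRNAs (22.7%) by edgeR, of which 833 (9.08%) were higher and 1246 (13.6%) lower in NCI-H1975. Without that pCMV6 library 2076 were called, and without that osimertinib-resistant library 2158. No library is in both comparisons, though the fit, its filter and its estimate of spread are shared. Of the 1817 circRNAs called between NCI-H1975 and PC-9, 1103 were called in the same direction here, which is 60.7% of those calls and 53.1% of the 2079. They were 453 of the 909 higher (49.8%) and 650 of the 908 lower circRNAs (71.6%), while 7 were called in opposite directions. By sign of the fitted difference alone, 1708 (94.0%) of the called circRNAs kept their direction, against 73.2% of all circRNAs tested. The derived groups differ from the compared ones by drug or plasmid as well as by library, and these cannot be told apart here.

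A difference between the parental and the derived contrasts was called for 64 circRNAs (0.698%), 41 (0.447%) with a higher log2 difference between NCI-H1975 and PC-9 and 23 (0.251%) with a lower one (edgeR's quasi-likelihood test, 949 at an unadjusted p under 0.05). Of these, 13 were called the same way in both contrasts with unequal size, 7 were called in opposite directions, 26 were called between NCI-H1975 and PC-9 alone and 18 in the derived groups alone. The count moved with single libraries. It was 40 and 30 without NCI-H1975 replicates 1 and 2, 37 and 33 without PC-9 replicates 1 and 2, and 29 and 26 without gefitinib-resistant replicates 1 and 3. DESeq2 called 132, and edgeR without the filter called 7.

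**Figure D4:**
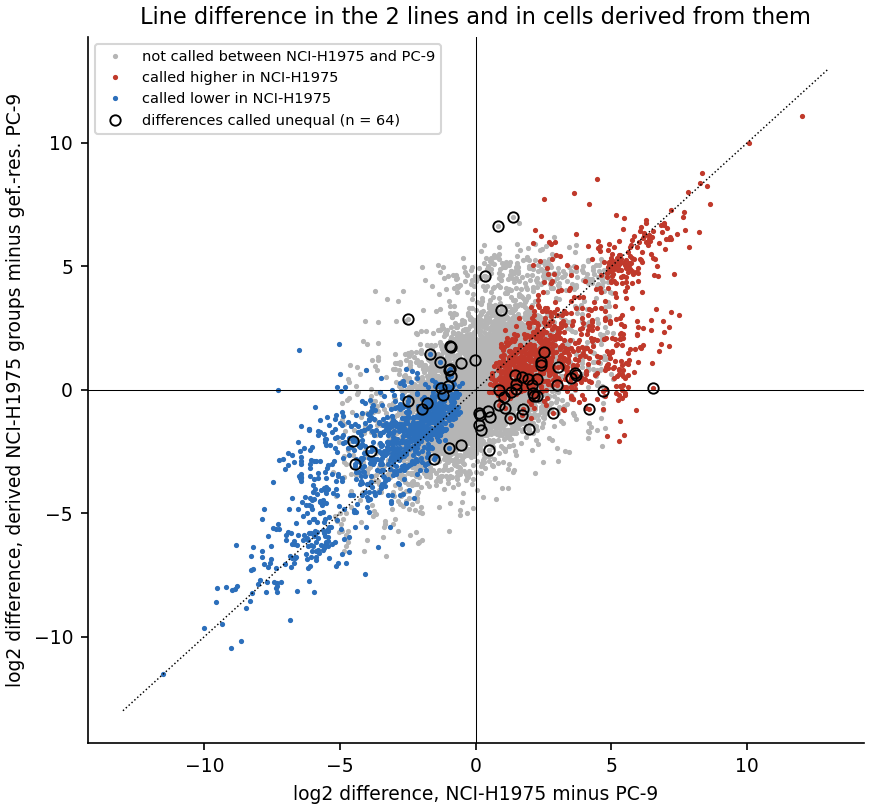
Log2 difference in the derived groups (vertical axis) against that between NCI-H1975 and PC-9 (horizontal axis), 1 point for each of the 9175 circRNAs tested, with red and blue for those called higher and lower in NCI-H1975 and the dotted line where the differences are equal. Of the called circRNAs 94.0% keep their sign, and the 64 whose differences were called unequal are ringed.

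Circular RNAs with neighbouring numbers tended to be called the same way. The table numbers circRNAs by the first of its columns with a read, and what orders the numbers within such a block is not given in the sources used here. To keep differences between blocks from setting the direction, only the block of the first column, pCMV6 replicate 1, was counted. That library is itself of NCI-H1975, and the 7285 circRNAs tested in its block held 866 called higher (59.6% of calls) and 588 called lower (40.4%). Such a lean by itself raises the share of pairs called the same way, by an amount that was not computed. In 3143 pairs of consecutive numbers both circRNAs were tested, and in 204 both were called: 103 pairs higher in NCI-H1975, 90 lower and 11 in opposite directions, so that 94.6% went the same way. At 2 numbers apart the share was 89.5%, at 10 apart 74.5% and at 100 apart 56.8%, with 67 pairs the same way and 51 opposite. The neighbour of a called circRNA was itself called in 30.4% of pairs, against 20.9% of all neighbours. The called circRNAs formed 71 pairs, 10 runs of 3 and 4 runs of 4 consecutive numbers higher in NCI-H1975, and 44, 13 and 4 lower, with 2 runs of 5. CircRNAs in such runs may share a source, so the 1817 calls need not be as many separate differences. The share for consecutive numbers lay between 92.3% and 96.6% under every alternative in which it was recomputed.

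**Figure D5:**
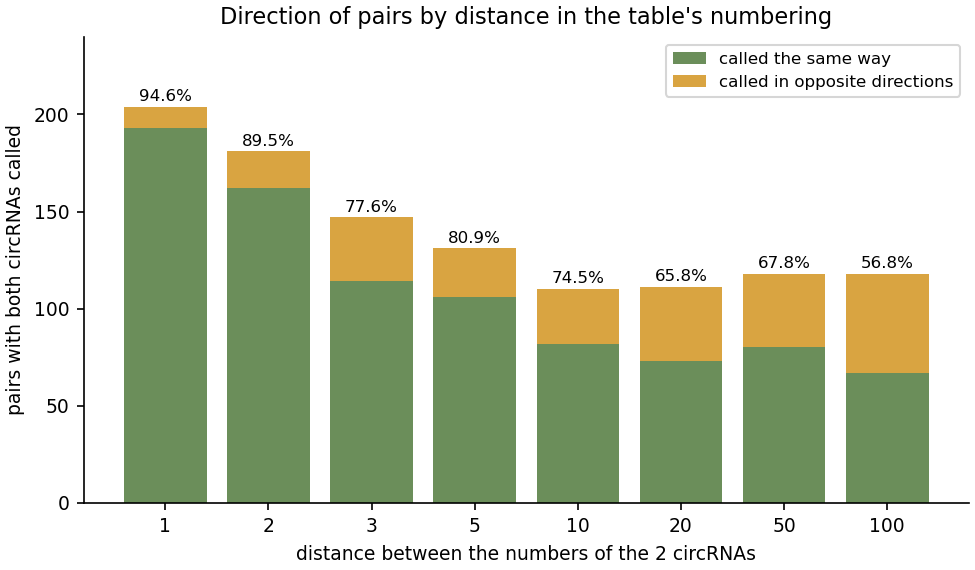
Number of pairs with both circRNAs called (vertical axis) by the distance between their numbers in the table (horizontal axis), for circRNAs first read in pCMV6 replicate 1, with green for pairs called the same way, orange for opposite directions and the percent called the same way above each bar. The share is 94.6% for consecutive numbers and 56.8% at 100 numbers apart.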

How the data were processed

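Circular RNA was purified and sequenced from total RNA by a sequencing provider, per the labels' protocols. The authors deposited raw read counts, as whole numbers. HISAT2, DESeq2 and hg38 are named in the submitters' processing notes. The circRNA caller and its filters were not given in the sources used here. Counts of all 21 libraries were fitted by edgeR 4.0.16 under R 4.3.3 (filterByExpr, minimum count 5 and minimum total 15, TMM scaling, 1 mean for each of 7 groups, robust quasi-likelihood fit, glmTreat for a fold of 2). P-values were adjusted by Benjamini and Hochberg over the 9175 circRNAs, with a threshold of 0.05. The code was checked on simulated data, in which circRNAs averaging at least 5 reads were given a known fold. It called 13 of 100 at a fold of 2 and 46 of 100 at a fold of 4, all in the right direction. It also called 4 circRNAs given no fold, with 8021 in the fit. In the simulation, differences of these sizes were thus missed more often than called. Far fewer circRNAs differed there than were called in the data, which makes the adjusted threshold stricter. These recoveries are therefore not rates for the data. The SE is the log2 difference divided by the square root of F, so it rests on a spread shared across circRNAs. Folds against an unread group use a floor of 3 counts over its 3 libraries, which covers counting error only, since reads amplified without molecular identifiers are not independent molecules. Library values were compared by exact permutation with SciPy 1.17.1. Named were the 2 circRNAs with the smallest p in each direction, and the 2 most abundant uncalled ones with an interval within a fold of 2. The comparison and these rules were chosen with earlier results of these data known, and the minimum of 5 reads for intervals after their values were seen. Alternatives were other scalings, filters, DESeq2 1.42.0, a replicate block, the 6 libraries alone and left-out libraries.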

Additional observations from a re-analysis of the deposited data

Results flagged for a closer look

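The difference between NCI-H1975 and PC-9 was not equal to that between the derived groups for 64 circRNAs when the difference itself was tested in edgeR, and the 2 with the smallest p in each direction are given here. hsa_circ_502 was 4.37-fold higher in NCI-H1975 than in PC-9, at 777.0 ± 99.5 against 181.0 ± 47.6 CPM (SD, n = 3). In gefitinib-resistant PC-9 it stood at 918.7 ± 272 CPM, near the derived NCI-H1975 groups, so that the log2 difference between the lines was larger by 2.27 in the compared libraries (edgeR adjusted p = 7.89e-08). For hsa_circ_19001 the gap between contrasts was 2.43 on the log2 scale (edgeR adjusted p = 1.16e-06): it was higher in NCI-H1975 than in PC-9, at 550.6 ± 132 against 230.6 ± 52.2 CPM, while gefitinib-resistant PC-9 stood at 633.5 ± 111 CPM. The derived groups of NCI-H1975 stood at 464.0 ± 78.0 CPM in pCMV6, 452.5 ± 140 in FASN and 107.9 ± 52.1 in osimertinib-resistant cells. Without the osimertinib-resistant group, a setting chosen after seeing the data, the gap for hsa_circ_19001 was 1.75 (edgeR adjusted p = 0.00354). hsa_circ_4226 was lower in NCI-H1975, at 1020 ± 110 against 4026 ± 360 CPM, and gefitinib-resistant PC-9 held 2155 ± 196 CPM. The derived NCI-H1975 groups held 1473 ± 151 CPM in pCMV6, 1468 ± 429 in osimertinib-resistant and 950.3 ± 284 in FASN cells. Its log2 gap between contrasts was -1.22 (edgeR adjusted p = 0.000323). hsa_circ_7627 did not differ by the test between the lines, at 1443 ± 429 and 1466 ± 289 CPM, and stood at 643.7 ± 209 CPM in gefitinib-resistant PC-9. The derived NCI-H1975 groups held 1442 ± 284 CPM in pCMV6, 1122 ± 359 in osimertinib-resistant and 2007 ± 244 in FASN cells. Its log2 gap was -1.23 (edgeR adjusted p = 0.00223). The call of hsa_circ_7627 was lost without the filter on low counts (log2 gap -1.13, edgeR adjusted p = 0.9998), and without NCI-H1975 replicate 2 (0.0654), PC-9 replicate 2 (0.0873) or gefitinib-resistant replicate 3 (edgeR adjusted p = 0.149).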

How the results depend on the processing

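Calls between NCI-H1975 and PC-9 numbered between 1214 and 1884 with a library left out, and 1803, 1817 and 1811 with DESeq2 size factors, no scaling factors and hsa_circ_11052 removed before scaling. DESeq2 called 1833, of which 1664 were among the 1817. The even split of higher and lower calls moved with the setting. It was 836 and 967 with DESeq2 size factors, 864 and 969 in DESeq2's test and 806 and 953 on the 6 libraries alone. With no scaling factors it was 893 and 924, and with hsa_circ_11052 removed before scaling 923 and 888. Libraries thinned to equal totals, an alternative chosen after seeing the data, gave 1479. Without the filter, which raises the number of tests, 772 were called between the lines, 374 beyond a fold of 2, 1090 in the derived groups and 7 for the difference between contrasts. Beyond a fold of 4 lay 299, and DESeq2 called 132 for the difference between contrasts; the cause of that rise was not tested. With a library left out, 621 to 952 lay beyond a fold of 2, 1448 to 2158 were called in the derived groups and 26 to 71 for the difference between contrasts. Replicate numbers did not pair the libraries (correlation of deviations -0.00154, -0.0163 and -0.00422 for the same numbers); with a replicate block 1640, 876, 1937 and 63 circRNAs were called in these 4 comparisons. The top share differed by 0.190 percentage points for 100 circRNAs and by 6.48 with hsa_circ_11052 kept, and the number of circRNAs that hold 50% of the reads reversed from -116 to 159 without it. For hsa_circ_6744 the sign of a log2 difference near 0 turned to 0.0070 without the filter, 0.013 without osimertinib-resistant replicate 2 and 0.071 after thinning, and with a library of either line left out it ranged from -0.077 to 0.16, above 0 without NCI-H1975 replicate 1 (0.038) or PC-9 replicate 3 (0.16). Without the filter the calls of hsa_circ_4226 (log2 gap -1.14, edgeR adjusted p = 0.573) and hsa_circ_7627 (-1.13, 0.9998) were lost with gaps of about the same size. Depth limits the comparison: the tested circRNAs had a median of 5.17 reads a library.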

Other observations

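The circRNAs that were called between the lines and unread in one of them were followed in the other groups. The filter on low counts ran over all 21 libraries, so a circRNA unread in one line had to reach its minimum elsewhere, and its presence in groups of the other line is partly set by that filter. Fitted on the 6 libraries alone these classes held 72 and 133 circRNAs. Of the 229 higher in NCI-H1975 and unread in PC-9, all 229 had a read in FASN cells, 225 in pCMV6 and 220 in osimertinib-resistant cells. In gefitinib-resistant PC-9, 96 of them (41.9%) had a read, with 488 reads in all against 8402 in NCI-H1975, and 9 had at least 10 reads. NL20 had a read of 167 (72.9%), against 94.3% of all circRNAs tested. As a circRNA could also pass the filter through NL20, this contrast is partly set by the filter.

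Of the 224 lower in NCI-H1975 and unread there, 221 had a read in gefitinib-resistant PC-9. Some were read in the derived NCI-H1975 groups: 58 (25.9%) in FASN, 64 (28.6%) in pCMV6 and 87 (38.8%) in osimertinib-resistant cells, with 191, 264 and 802 reads in all out of 360022, 304143 and 390279. At least 10 reads were found for 4, 3 and 16 of them. PC-9 held 11189 reads of these circRNAs and NL20 5554. As absence from the 3 NCI-H1975 libraries chose these circRNAs, a return of reads in another group of the line is partly set by that choice, and the difference between the derived groups was not tested.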
